A study of Mus musculus with 6 samples.

Results

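The data describe 8 noncoding RNA genes, Snhg1, Snhg3, Snhg4, Snhg6, Snhg8, Snhg12, Gas5 and Dancr, in mouse T cell leukemias with and without Sh2b3. The genes were chosen by name, as hosts of small nucleolar RNAs (snoRNAs) and growth-linked noncoding RNAs, after Dancr and Snhg4 had shown small p-values for knockout against wild type in these arrays. All 8 were measured, by 15 probe sets that list 1 gene each, among 12565 genes tested. Another 2 probe sets list a member beside a second gene and were not used. Because the choice rests on the comparison of knockout with wild type, that comparison is given for the 8 genes as a description, with standard errors and no test.

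SnoRNA host genes are transcribed as long precursors whose introns carry snoRNAs, most of which guide chemical modifications of ribosomal RNA. The spliced exons of most of these hosts encode no protein, and several, Gas5 among them, are degraded by nonsense-mediated decay when ribosomes read them. Many begin with a terminal oligopyrimidine (TOP) tract, as ribosomal protein mRNAs do, which ties their fate to growth signals through mTORC1. Gas5 is named for its accumulation in growth-arrested cells, and Dancr is known as a noncoding RNA that holds back differentiation.

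Both groups were leukemias started from lineage-depleted bone marrow progenitors of 8-week old donors, infected with the MigR1 retrovirus carrying ΔE-Notch1, an activated NOTCH1, and grown in irradiated C57BL6 recipients. The wild-type group came from C57BL6 donors (genotype Sh2b3 wild type ΔE-NOTCH1) and the knockout group from Sh2b3-/- donors (Sh2b3-/- ΔE-NOTCH1, with no strain given for these arrays), with 3 arrays each. Sh2b3 encodes LNK, an adaptor that restrains cytokine receptor signalling. The recipients and the activated NOTCH1 were common to both groups, and the tumours may also hold cells of the host, which these arrays do not separate. The sample titles call the arrays of each group biological replicates. They do not tie arrays to animals, so whether the spread between arrays is in part technical is not known. Values are log2 signals of the probe sets, written in the order of replicates 1, 2 and 3.

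Sh2b3 read 4.25, 4.83 and 4.08 in wild type and 2.29, 2.24 and 2.29 in knockout on one probe set, and its other probe set was too dim in either group to check the labels. Wild-type arrays 1 and 2 stood apart as a near-identical pair: across the 6725 genes whose mean exceeded 5, they differed with an SD of 0.234, whereas the other 14 pairs had 0.503 to 0.689. They count as separate samples here. The T cell markers Cd3d, Cd3g and Thy1 were high on every array, and Cd4 was between 2.23 and 4.63. Bcl11b (11.08, 11.13 and 11.04, then 10.47, 10.94 and 10.19) was lower on every knockout array. For the other T cell markers the groups overlapped, and Cd8a (9.88) and Cd8b1 (8.80) were lowest on knockout array 3. Summed on the linear scale and written as log2, 8 of 10 listed T cell markers with a probe set gave 14.2 to 14.6 in wild type and 14.0 to 14.4 in knockout. In the same way, 6 of 7 B cell markers gave 6.48 to 7.32 in wild type and 6.43 to 8.46 in knockout, with Cd79a and Pax5 below 3 on all arrays, and 8 of 8 myeloid markers gave 11.3 to 11.5 and 11.5 to 11.7, with Cd14, Itgam and Elane below 3. Of the erythroid markers, 4 of 6 gave 11.7 to 12.0 and 10.9 to 12.3, with Hba-a1 below 3, and 3 of 4 natural killer markers gave 3.23 to 3.81 and 3.43 to 4.19, with Ncr1 and Klrk1 below 3. The myeloid sum rested mainly on S100a8 (10.97 to 11.30) and the erythroid sum on Slc4a1 (10.70 to 12.09). Lyz2 (7.71, 7.82 and 7.75, then 8.50, 7.99 and 7.83) was higher on every knockout array. So was Adgre1 (3.83, 3.68 and 3.78, then 4.92, 4.17 and 3.95). For the other myeloid markers the groups overlapped. The part of these cells in the results was not tested.

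The promoter windows of 4 hosts are shown, picked with their knockout differences known. Dancr and Snhg3 were lower in knockout, whereas Snhg12 and most of the Gas5 signal were not. Because of that choice, the sequences cannot be read against the difference. The windows of Snhg1 and Snhg8 were searched too but are not printed. Each window runs from 250 bases before to 50 bases after an annotated start, 5′ to 3′ on the strand of the gene, from RefSeq on GRCm38.p6. Capitals mark CCAAT, or its reverse ATTGG, and TATAAA. Snhg4 and Snhg6 had no entry.
Dancr, chr5:74092810-74093109, plus strand: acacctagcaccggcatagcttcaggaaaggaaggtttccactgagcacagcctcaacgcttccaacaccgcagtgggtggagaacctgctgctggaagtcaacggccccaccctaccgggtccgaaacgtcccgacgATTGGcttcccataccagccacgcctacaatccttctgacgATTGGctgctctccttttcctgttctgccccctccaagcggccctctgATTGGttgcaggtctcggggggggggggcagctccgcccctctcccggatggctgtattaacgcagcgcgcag
Snhg3, chr4:132353637-132353936, minus strand: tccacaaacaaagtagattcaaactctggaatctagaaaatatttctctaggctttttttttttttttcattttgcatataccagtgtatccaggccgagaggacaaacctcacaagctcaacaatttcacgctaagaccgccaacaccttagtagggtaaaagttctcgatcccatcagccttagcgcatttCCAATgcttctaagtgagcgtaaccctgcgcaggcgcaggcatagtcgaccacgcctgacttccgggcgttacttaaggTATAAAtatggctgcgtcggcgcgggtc
Snhg12, chr4:132308428-132308727, plus strand: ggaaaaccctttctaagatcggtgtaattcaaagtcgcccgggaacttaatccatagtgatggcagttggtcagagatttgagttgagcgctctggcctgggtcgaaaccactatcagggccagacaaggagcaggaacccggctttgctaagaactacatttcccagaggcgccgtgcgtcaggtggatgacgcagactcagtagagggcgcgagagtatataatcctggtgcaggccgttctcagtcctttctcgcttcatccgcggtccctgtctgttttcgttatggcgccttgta
Gas5, second annotated start, chr1:161034916-161035215, plus strand: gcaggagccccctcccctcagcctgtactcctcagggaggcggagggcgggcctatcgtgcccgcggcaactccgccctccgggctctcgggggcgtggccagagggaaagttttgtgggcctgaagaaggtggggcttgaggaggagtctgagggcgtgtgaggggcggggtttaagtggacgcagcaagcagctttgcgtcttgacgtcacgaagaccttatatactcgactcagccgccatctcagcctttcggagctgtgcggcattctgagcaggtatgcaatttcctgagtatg

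Both strands were searched over 32851 promoter windows of this length. CCAAT occurred in 37.4% of all windows and in 3 of the 7 starts of the 6 matched hosts, those of Dancr, Snhg3 and Snhg8. The Dancr window held it 3 times, as did 3.37% of all windows, counting those with at least 3. TATAAA occurred in 13.6% of all windows and in Snhg1, Snhg3 and Snhg8. Counted from the start, it lay at -29 in Snhg1 and -30 in Snhg8. In Snhg3 it lay at 22, after the start. Only the exact letters were searched, so variants of this motif were not counted. CACGTG, the E-box bound by MYC, occurred in 7.15% of all windows and in 0 of the 7 starts. The longest run of C and T within 20 bases of the start was 9 bases in Snhg1 and Snhg12, a length reached by 10.7% of all windows. It was 7 bases in Dancr and Snhg8 (24.3% of windows), 6 at the second Gas5 start (37.5%) and 5 in Snhg3 (57.5%). The first Gas5 start had the shortest run, 3 bases (93.7%). Of the hosts with CCAAT, Dancr and Snhg3 were at -1.50 and -1.11 in knockout, and Snhg8 at -0.20 with overlapping groups. Of those without it, Snhg1 and Snhg12 were at 0.20 and 0.21. Gas5, also without it, was at 0.07 on its probe set with the highest mean and -0.21 as the mean over its probe sets. The hosts were chosen on this contrast, so nothing is read from the motif beside it. Only 6 hosts had a window, Snhg4 and Snhg6 were not searched, and this match of letters has no test.

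The 8 genes did not fall together. Dancr, Snhg3 and Snhg4 were lower in knockout by more than 1 on the log2 scale, and the other 5 genes differed by less than 0.25 in either direction on the probe set with the highest mean. On those probe sets 4 genes had a lower and 4 a higher mean in knockout, with a median difference of -0.07, beside -0.01 over all genes tested, of which 6043 were higher and 6522 lower. All knockout arrays lay below all wild-type arrays for 3 of the 8 genes (percent of all genes tested, 8.29%) and above them for 1 (5.49%). A difference below -1 was found for 3 of the 8, and for 1.05% of all genes. With limma over all genes 0 of the 8 and 0% of the 12565 genes passed an adjusted p of 0.05, whereas 982 genes, 7.82%, had an unadjusted p under 0.05. These shares describe genes that were chosen on this contrast, and nothing is read from them.

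**Figure D1:**
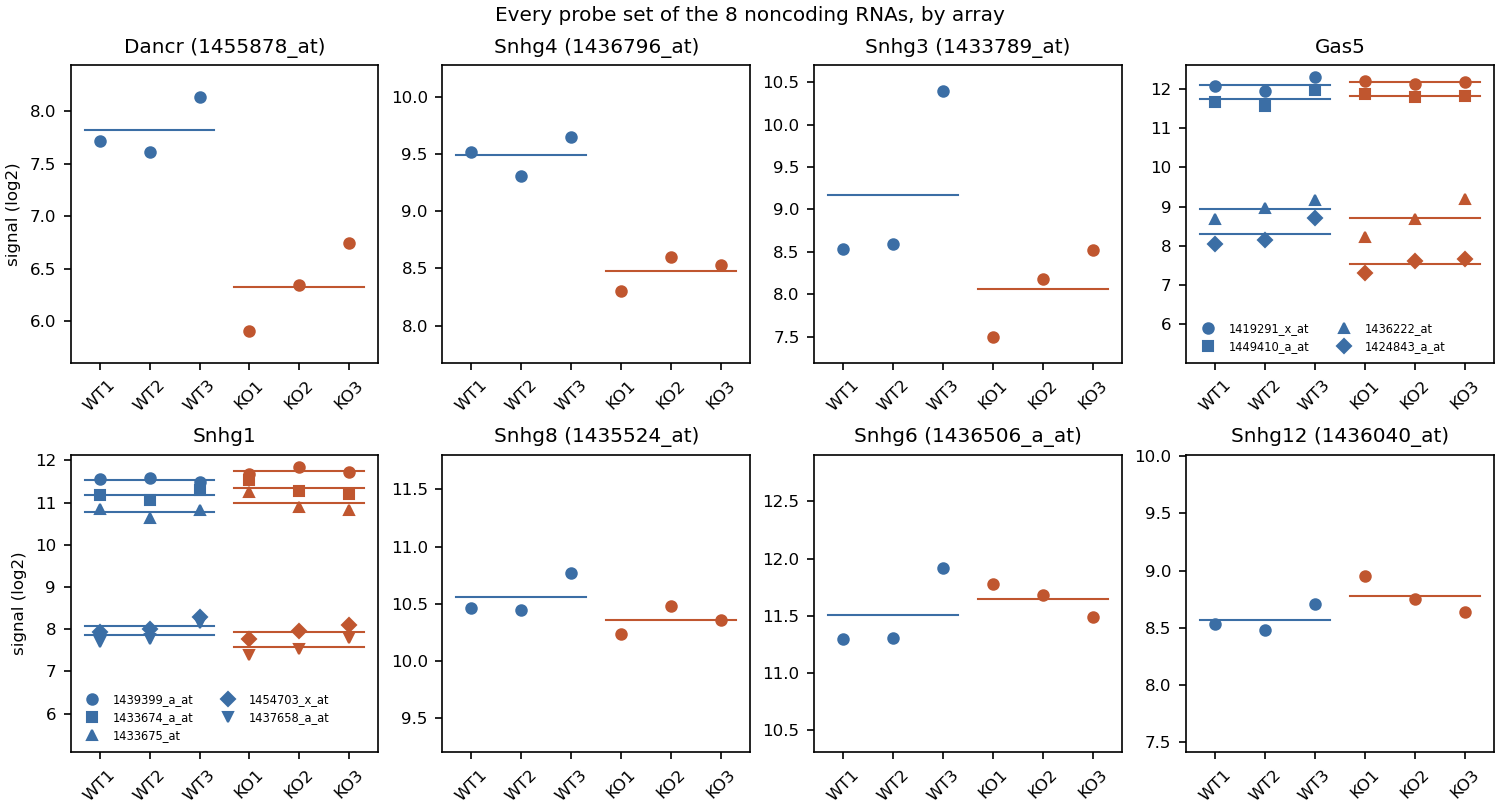
Log2 signal (y axis) of every probe set of the 8 genes on each array (x axis), with wild type (WT) in blue and knockout (KO) in orange; markers are arrays, marker shapes are probe sets and lines are group means. Dancr and Snhg4 separate the groups, Snhg3 does so by 0.01 between its nearest arrays, and the probe sets of Gas5 and of Snhg1 differ in direction.

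Dancr, which hosts Snora26 and lies on chromosome 5, had the largest difference of the 8. It read 7.72, 7.61 and 8.14 in wild type and 5.90, 6.34 and 6.74 in knockout (7.82 ± 0.28 and 6.33 ± 0.42, SD, n = 3). Every knockout array was below every wild-type array. The difference was -1.50 with a standard error of 0.27, or 2.82-fold higher signal in wild type. Leaving out each array in turn gave -1.28 to -1.70. In bulk tumour RNA, fewer cells that hold a transcript and less of it per cell cannot be told apart. Sh2b3 lies on chromosome 5 too, and the part of this in the result was not tested.

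Snhg4, which hosts Snora74a on chromosome 18, had the tightest replicates of the 3 lower genes. It read 9.52, 9.31 and 9.65 in wild type and 8.30, 8.60 and 8.53 in knockout (9.49 ± 0.17 and 8.48 ± 0.16, SD, n = 3). The groups did not overlap, and the difference was -1.02 with a standard error of 0.16, 2.02-fold higher in wild type. It was -0.93 to -1.11 when each array was left out in turn. The B cell marker sum in knockout was highest on array 2 (8.46), then array 1 (8.12), and lowest on array 3 (6.43), and its part in the values of Dancr and Snhg4 was not tested.

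Snhg3, the host of Snora73a and Snora73b on chromosome 4, varied most between arrays of one group. It read 8.53, 8.59 and 10.40 in wild type and 7.49, 8.18 and 8.52 in knockout (9.17 ± 1.06 and 8.06 ± 0.52, SD, n = 3). Knockout array 3 was only just below wild-type arrays 1 and 2, and wild-type array 3 was far above all others. The difference was -1.11 with a standard error of 0.49. Without wild-type replicate 3 it was -0.50.

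Gas5 holds 8 snoRNA genes of the RefSeq table within its span, Snord47 among them, and its 4 probe sets gave different answers. The probe set 1419291_x_at read 12.06, 11.94 and 12.30 in wild type and 12.21, 12.13 and 12.17 in knockout, a difference of 0.07 (standard error 0.11). Another, 1449410_a_at, read 11.66, 11.56 and 11.98 and then 11.87, 11.80 and 11.81, a difference of 0.09 (standard error 0.12). Both show overlapping groups with little change. In contrast, 1424843_a_at read 8.05, 8.16 and 8.72 in wild type and 7.32, 7.62 and 7.66 in knockout, so that every knockout array was lower. Its difference was -0.78 with a standard error of 0.22, 1.71-fold higher in wild type.

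The fourth Gas5 probe set, 1436222_at, read 8.68, 8.97 and 9.16 in wild type and 8.22, 8.69 and 9.19 in knockout. Knockout array 3 was the highest of the 6 and knockout array 1 the lowest, and the difference of -0.24 (standard error 0.25) is within the spread. Within an array, the log2 difference between 1424843_a_at and 1419291_x_at shifted by -0.85 from wild type to knockout, without overlap of the groups. That pair was picked after its values were seen, so the shift has no test. The average over the 4 probe sets gave -0.21 for Gas5, against 0.07 for the probe set with the highest mean. Which parts of the Gas5 transcript each probe set matches is not given in the sources used here, and Gas5 overlaps the coding gene Zbtb37 on chromosome 1.

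Snhg1, on chromosome 19, also has 8 snoRNA genes within its span, and its 5 probe sets split in a like manner. The probe set 1439399_a_at read 11.56, 11.58 and 11.50 in wild type and 11.68, 11.84 and 11.73 in knockout, so that every knockout array was higher, by 0.20 (standard error 0.09) in the mean. Those named 1433674_a_at and 1433675_at had differences of 0.16 and 0.22 with overlapping groups, and read 11.17, 11.06 and 11.29 then 11.53, 11.28 and 11.20 for the first and 10.86, 10.63 and 10.82 then 11.25, 10.90 and 10.83 for the second. The remaining 2 went the other way. The probe set 1437658_a_at read 7.71, 7.76 and 8.15 in wild type and 7.39, 7.53 and 7.79 in knockout, a difference of -0.30 (standard error 0.20), and 1454703_x_at read 7.93, 8.00 and 8.28 then 7.77, 7.95 and 8.11, a difference of -0.13. The mean over the 5 was 0.03. Relative to 1439399_a_at on the same array, 1437658_a_at was lower in knockout by 0.51 (a value of -0.51), again without overlap and chosen after the values were seen.

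**Figure D2:**
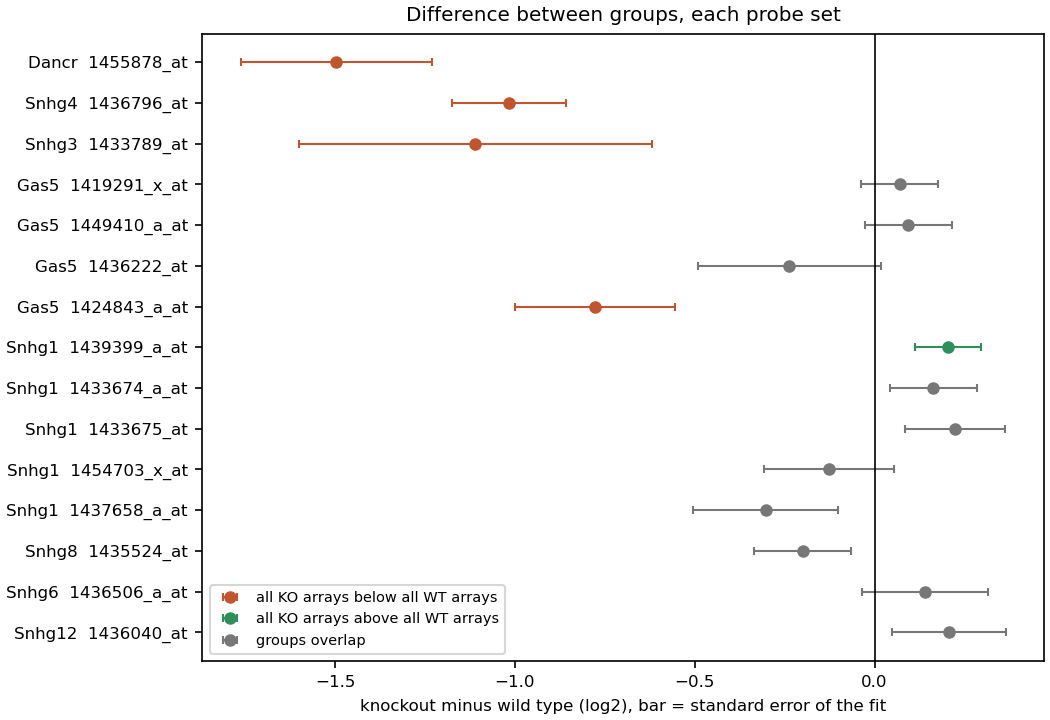
Knockout minus wild type on the log2 scale (x axis) for each of the 15 probe sets (y axis), with bars of 1 standard error from limma; colours mark whether the 3 knockout arrays lie below, above or among the 3 wild-type arrays. The probe sets of Dancr, Snhg4, Snhg3 and 1 of 4 for Gas5 lie below without overlap, and 1 of 5 for Snhg1 lies above.

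Snhg8, the host of Snora24, read 10.46, 10.45 and 10.77 in wild type and 10.24, 10.48 and 10.36 in knockout. The groups overlapped and the difference was -0.20 (standard error 0.13). Snhg6, which hosts Snord87 and overlaps the coding gene Mcmdc2, read 11.30, 11.31 and 11.92 and then 11.78, 11.68 and 11.49. Its wild-type array 3 was above and its wild-type arrays 1 and 2 below all knockout arrays, and the difference of 0.14 (standard error 0.17) was smaller than the wild-type SD of 0.36. Snhg12 hosts 4 snoRNAs, Snora16a, Snora44, Snora61 and Snord99, and lies on chromosome 4 as Snhg3 does. It read 8.53, 8.48 and 8.71 in wild type and 8.95, 8.75 and 8.64 in knockout, a difference of 0.21 (standard error 0.16) with overlapping groups. The gene table places Snhg12 and Snhg3 with only the coding genes Trnau1ap and Rcc1 between them, and in knockout the first was at 0.21 and the second at -1.11.

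Counted over probe sets, 8 of 15 had a lower and 7 a higher mean in knockout. All knockout arrays were below all wild-type arrays for 4 of the 15 (9.01% of the 22537 probe sets tested) and above them for 1 (4.77%). All 15 passed the filter on low values.

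A pattern that does not use the comparison of groups was seen among the wild-type arrays. Wild-type array 3 was the highest of its group for 7 of the 8 genes, whereas it was the highest for 37.9% of all genes tested. It was also the highest for 13 of the 15 probe sets. Most of these belong to Gas5 and Snhg1, and no share over all probe sets was computed. The median over the 8 genes, relative to the wild-type mean of each, was 0.21 on wild-type array 3, -0.07 on array 1 and -0.17 on array 2. Among knockout arrays, array 1 was the lowest for 5 of the 8 genes, against 32.3% of all genes, and for 9 of the 15 probe sets. Array 3 of the wild type is the one outside the near-identical pair, and members share arrays, so these counts describe 6 arrays and were not tested.

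Other noncoding snoRNA hosts also differed among themselves. Of 13 listed, 9 had a probe set and 6 passed the filter on low values, with 4 higher and 2 lower in knockout and a median of 0.05. That median has no settled sign: it was below 0 in 5 of 15 alternatives, among them -0.23 without wild-type replicate 2 and -0.12 with wild-type replicates 1 and 2 averaged. Snhg7 read 5.39, 4.92 and 5.22 in wild type and 4.17, 4.14 and 4.34 in knockout, a difference of -0.96 with a standard error of 0.25 and an adjusted p of 0.629 by limma. Snhg10 read 7.84, 7.02 and 7.23 and then 6.44, 6.60 and 5.62, a difference of -1.14 (standard error 0.33, adjusted p = 0.629 by limma). For both, every knockout array was below every wild-type array. Snhg10 had a second probe set without overlap, at -0.53, and another at -0.32 with overlap. Zfas1, a host of box C/D snoRNAs, stood at 0.08, Snhg5 at 0.07, Snhg16 at 0.10 and Snhg17 at 0.03. Of these 6 genes 0 passed the threshold, and 2, Snhg7 and Snhg10, had an unadjusted p under 0.05. Snhg11, Snhg14 and Snhg18 lay near the bottom of the scale and were not tested.

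Protein-coding hosts, which carry snoRNAs in the introns of ribosomal protein and translation factor genes, gave 0 calls. Of 23 tested, 7 were higher and 16 lower, with a median of -0.04, and 0 passed the threshold in either direction with limma (2 had an unadjusted p under 0.05). Eef2, the translocation factor of translation, had -0.29 (standard error 0.09). The ribosomal protein gene Rpl12 had -0.67, Dkc1, the pseudouridine synthase of box H/ACA snoRNPs, had -0.33, and Eef1b2 had 0.13. Adjusted p for these 4 was 0.629 to 0.685. Probe sets of ribosomal protein genes can share sequence with their many pseudogenes.

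The proteins that bind and assemble snoRNAs were split as well. Of 19 tested, 9 were higher and 10 lower, with a median of -0.09, and 0 passed (1 with an unadjusted p under 0.05). Tcof1, a nucleolar factor of ribosomal RNA transcription, read 9.74, 9.65 and 9.41 in wild type and 8.70, 9.03 and 9.12 in knockout, without overlap, at -0.65 (standard error 0.16, adjusted p = 0.629 by limma). Fbl, the methyltransferase of box C/D snoRNPs, had -0.26, and Pih1d1, of the complex that assembles them, had 0.43. The list shares Dkc1, Nop56 and Nop58 with the coding hosts.

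Genes that act on host transcripts after transcription gave 0 calls. Of 10 factors of nonsense-mediated decay tested, 4 were higher and 6 lower, with a median of -0.06, and 0 had an unadjusted p under 0.05. Upf1, the helicase at the core of that pathway, had -0.52 (standard error 0.31, adjusted p = 0.690 by limma), with knockout values of 4.64, 5.37 and 5.63. Casc3 had -0.23, Smg6 0.20 and Rbm8a 0.10. Of 11 genes of mTORC1 and TOP mRNA translation, 3 were higher and 8 lower, with a median of -0.19, and 0 passed (1 with an unadjusted p under 0.05). Eif4ebp1, a translation repressor under mTORC1, read 5.60, 5.63 and 4.64 in wild type and 6.36, 6.54 and 8.14 in knockout, at 1.72 (standard error 0.50, adjusted p = 0.629 by limma). Over the alternatives its difference ranged from 0.95 to 2.05. Mtor had -0.37 and Tsc2 -0.35. Larp1, which binds TOP mRNAs, read between 8.98 and 9.28 in wild type and 8.23, 8.79 and 9.23 in knockout, with overlap, at -0.34 and at -0.08 without knockout replicate 1.

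**Figure D3:**
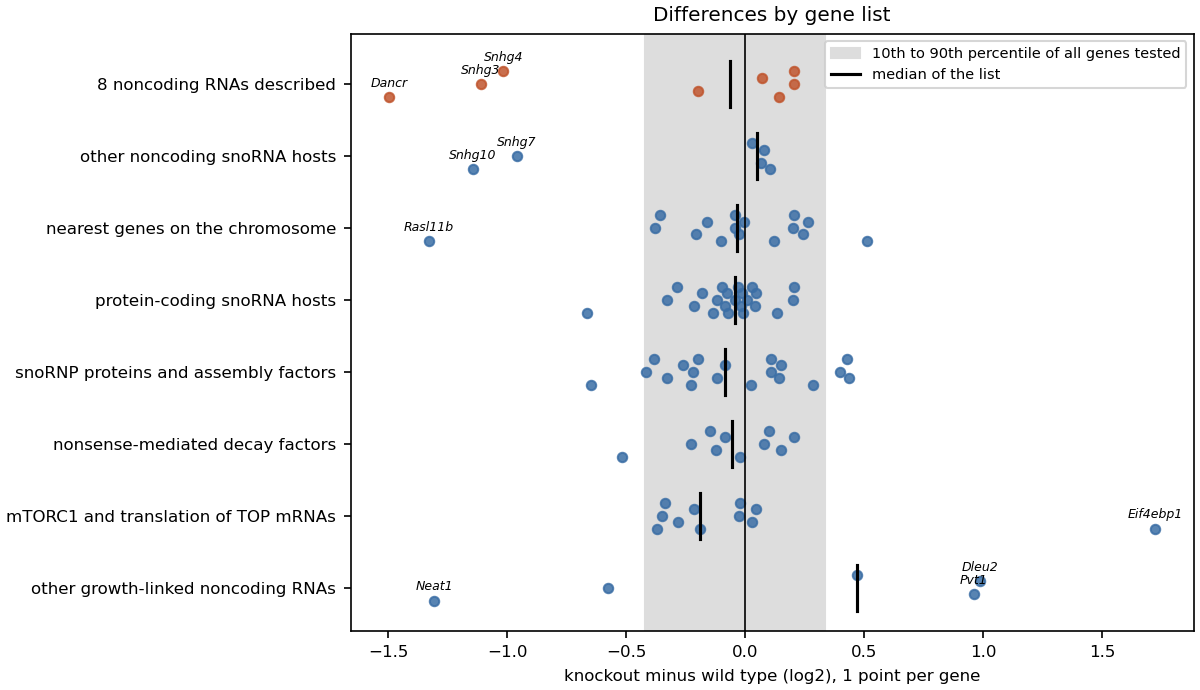
Knockout minus wild type on the log2 scale (x axis) for each gene tested, by gene list (y axis); the black bar is the median of the list and the grey band holds all genes tested from the 10th percentile, -0.42, to the 90th, 0.34. Dancr, Snhg3, Snhg4, Snhg7 and Snhg10 lie at or below -0.96, and so do the neighbour Rasl11b and the growth-linked Neat1.

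The nearest genes tested on each side of the 8, which were not chosen by their values, had a median of -0.04, with 6 of 16 higher and 10 lower, 0 past the threshold with limma and 2 with an unadjusted p under 0.05. Beside Snhg4, Matr3, a nuclear RNA-binding protein, read 12.13, 12.24 and 12.07 in wild type and 12.37, 12.39 and 12.30 in knockout, a difference of 0.21 (adjusted p = 0.638 by limma) that was -0.09 as the mean over its probe sets, and Sil1 had -0.04. Snhg4 itself was at -1.02. Beside Snhg3, Rcc1 had -0.10 and Phactr4 -0.01. Beside Snhg1, Slc3a2, a subunit of amino acid transporters, read 8.25, 8.25 and 7.89 and then 7.75, 7.80 and 7.77, at -0.36 with an adjusted p of 0.654 by limma.

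Dancr lies between Usp46 and Rasl11b among the genes tested. Usp46, a deubiquitinase, had -0.38 (standard error 0.27). Rasl11b read 9.41, 9.14 and 6.46 in wild type and 6.52, 7.43 and 7.07 in knockout, at -1.33 (standard error 0.70, adjusted p = 0.671 by limma). Its wild-type array 3 lay below all knockout arrays, where Dancr had its highest value. Without wild-type replicate 3, Rasl11b was at -2.27 and passed the threshold (adjusted p = 0.026 by limma), the lowest of its alternatives, which reached 0.984. Cenpl, a kinetochore gene beside Gas5, was 0.51 higher, at 7.12, 7.17 and 7.34 and then 7.45, 7.82 and 7.89 (adjusted p = 0.634 by limma).

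Profiles over the 6 arrays were compared by the root mean square difference after centring each gene, as a description of arrays that include the near-identical pair. The nearest to Dancr were Adam19, a membrane metalloprotease, at 0.22, Ace, the angiotensin-converting enzyme, at 0.22, Rab26os at 0.23, Gm10336 at 0.30 and Snhg4 at 0.31. Adam19 read 9.22, 9.24 and 10.02 in wild type and 7.80, 8.54 and 8.48 in knockout. The nearest to Snhg4 were Kctd9 at 0.09, Clip1, a microtubule plus-end protein, at 0.11, Ext2 at 0.14, the snoRNA host Snhg7 at 0.14 and Trub1, a pseudouridine synthase, at 0.15. In the other direction Dancr ranked 255 among all genes in nearness to Snhg4. Snhg3 ranked 106 in nearness to Dancr and 6950 in nearness to Snhg4. The other 5 members ranked between 1643 and 9250 for Dancr and between 1365 and 8587 for Snhg4. Dancr and Snhg4 were chosen for their knockout difference and these genes for nearness to them, so their lower knockout values follow from the choice.

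**Figure D4:**
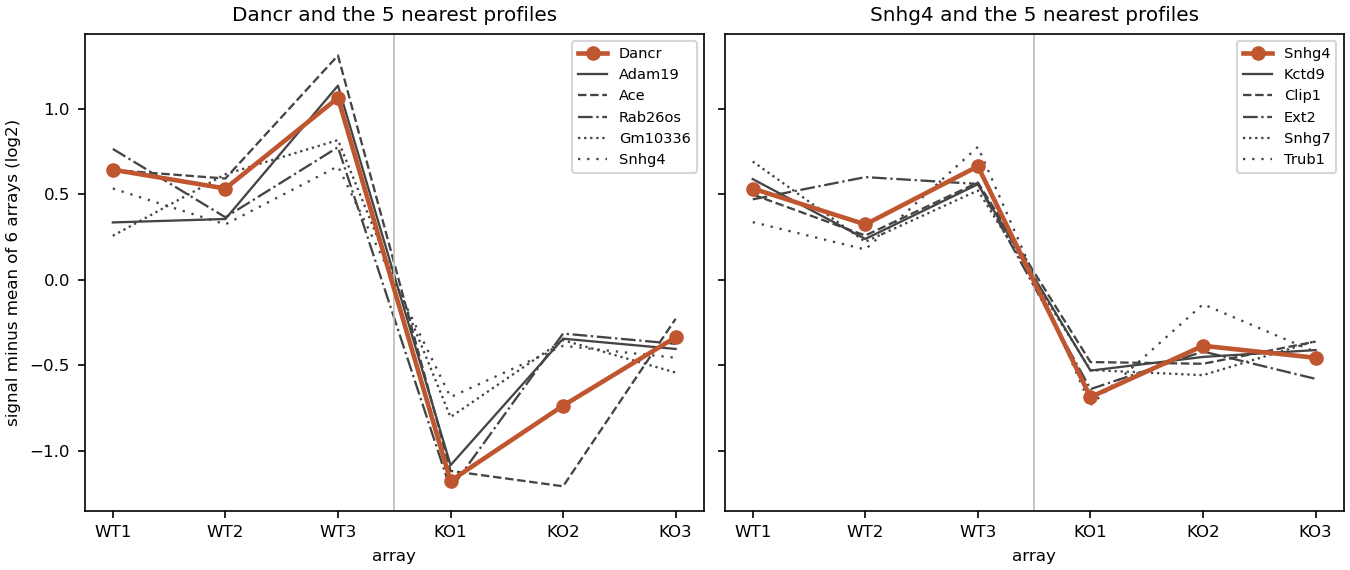
Log2 signal minus the mean over 6 arrays (y axis) on each array (x axis) for Dancr (left) and Snhg4 (right), in orange, with the 5 genes of the smallest root mean square difference in grey lines. The profiles are lower on the knockout arrays, which the choice of Dancr and Snhg4 fixes. Snhg4 is 5th in nearness to Dancr, and Dancr 255th in nearness to Snhg4.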

How the data were processed

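Gene expression was measured on 6 one-colour arrays from 10 ng of amplified, biotin-labelled RNA each, per the labels' protocols. The deposited values are log2 signals of 45101 probe sets made by the authors with GCRMA, per the submitters' processing notes; no version or setting of it was known here, and the log base was taken from the range of values, 0.31 to 14.76. Array medians were 2.26 to 2.36. The number of arrays limits the precision.

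Names came from the platform annotation and a RefSeq gene table (GRCm38.p6), used for names, chromosomes and neighbours. Of the probe sets, 34958 list 1 symbol, 932 several and 9211 none. Each gene was represented by its probe set with the highest mean, and was tested if its mean exceeded 2.04, the 40th percentile over probe sets. The difference, knockout minus wild type, was fitted with limma 3.58.1 in R 4.3.3 (lmFit, eBayes with an intensity trend, two-sided, Benjamini-Hochberg over all genes, threshold 0.05). The fit was tested on simulated data. Standard errors of the 15 probe sets come from the same fit over all 22537 probe sets.

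The members and lists were chosen with earlier results of these data known. Genes named are all probe sets of the 8, those of each list that passed (if none did, the 4 of lowest p), all other noncoding hosts, nearest neighbours, the 5 nearest profiles of Dancr and of Snhg4, and marker genes. The lists were other noncoding snoRNA hosts, protein-coding hosts, snoRNP proteins, nonsense-mediated decay, mTORC1 and other growth-linked noncoding RNAs. Alternatives were the filter, prior variance, scaling, array weights, replicate block, each array left out, wild-type replicates 1 and 2 averaged, and the choice of probe set.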

Additional observations from a re-analysis of the deposited data

How the results depend on the processing

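Of 16 alternatives, 11 gave 0 genes past the threshold, as on all arrays. Centring arrays on their medians gave 2 genes, array weights gave 1, and leaving out 1 array gave 0 to 51, the highest without wild-type replicate 3, with 3 without knockout replicate 1 and 1 without knockout replicate 3. In all 16, 0 genes of the pathway lists passed. The median difference over the 8 genes stayed between -0.21 and 0.09, and the share of members lower in knockout between 50% and 62.5%. Over 15 alternatives Dancr ranged from -1.70 to -1.28, Snhg4 from -1.11 to -0.87 and Snhg3 from -1.43 to -0.50. Snhg1, Snhg6 and Snhg12 stayed above 0 and Snhg8 below 0, whereas Gas5 was below 0 in 2, with the mean over probe sets (-0.21) and without wild-type replicate 2 (-0.01). Centring arrays on their medians added 0.15 to every difference, which made Gas5 0.22 and Snhg8 -0.05. The same shift moved the median over all genes tested from -0.01 to 0.14. The medians of the protein-coding hosts, the snoRNP proteins and the decay factors were below 0 in 14, 12 and 11 of 15 alternatives. With every probe set on its own, a gene has several values, which the report gives. The replicate block gave 0 genes past the threshold and changed no call. Samples of the same number correlated at -0.02, 0.09 and -0.04 over genes after removing group means. Those of different numbers correlated at -0.12 to 0.08. With so few arrays these values cannot decide whether the numbers pair the arrays. Probe sets near 2, the dim end of GCRMA values, cannot show a decrease.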

Other observations

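Other growth-linked noncoding RNAs were measured in the same arrays. Of 9 listed, 6 had a probe set and 5 passed the filter on low values, with 3 higher and 2 lower in knockout, 0 past the threshold with limma and 2 with an unadjusted p under 0.05. The median, 0.47, is the value of Meg3, which lay near the bottom of the scale, and it was 0.22 without wild-type replicate 1, 0.70 without wild-type replicate 2, 0.27 with no filter and 0.21 as the mean over probe sets. Neat1, the scaffold of paraspeckles, read 6.37, 6.95 and 5.43 in wild type and 5.34, 5.53 and 3.96 in knockout, at -1.31 (standard error 0.52, adjusted p = 0.634 by limma), with overlapping groups. Malat1, a nuclear speckle RNA, had a lower mean in knockout on 6 of its 7 probe sets, between -0.57 and -1.26, and a higher one, 0.14, on the other, and on each of the 7 the groups overlapped. Its probe set with the highest mean read 12.11, 12.32 and 11.54 and then 11.31, 11.95 and 10.98 (adjusted p = 0.654 by limma).

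Dleu2, the host of the microRNAs miR-15a and miR-16-1, read 5.57, 5.27 and 6.53 in wild type and 6.49, 7.21 and 6.63 in knockout, at 0.99 (standard error 0.37, adjusted p = 0.634 by limma). Its other probe sets had 1.22 and -0.59. Pvt1, the neighbour of Myc, read 3.45, 3.55 and 3.81 and then 3.74, 4.38 and 5.57, at 0.96 with overlap (adjusted p = 0.651 by limma), and at 0.46 without knockout replicate 3. Another 2 of its probe sets that passed the filter were higher on every knockout array, by 0.84 and 0.30. Dancr and Snhg3 were highest on wild-type array 3, whereas this Neat1 probe set and all 7 of Malat1 were lowest there among the wild-type arrays. A second Neat1 probe set lay near the bottom of the scale.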
